A study of Mus musculus with 79 samples.

Results

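Inguinal white adipose tissue (iWAT), a subcutaneous fat depot, was profiled by RNA sequencing in 10 of the 79 libraries of the series. These were all the iWAT libraries, 5 labelled leptin and 5 labelled PBS, and each came from a different mouse. All 10 mice were 4- to 5-month-old females of the genotype BMAd-*Pnpla2*+/+ (WT), the control littermates, on a mixed SJL and C57BL6 background, of mice that lack *Pnpla2* (the lipase ATGL) in bone marrow adipocytes. They received leptin at 100 ng/hr or PBS by intracerebroventricular (ICV) infusion from an osmotic minipump for 9 days, and were housed singly and pair-fed. Which of the Cre and Flp alleles of that line the WT littermates carried is not given in the sources used here. Caudal vertebrae (CV), a bone whose marrow is rich in fat, came from the same 10 mice and served as the comparison tissue.

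Leptin is a hormone that fat cells release in proportion to their stores. It acts on neurons of the hypothalamus, which lower food intake and raise sympathetic outflow to fat, where noradrenaline binds beta-adrenergic receptors, raises cyclic AMP and starts the breakdown of stored triglyceride by ATGL, hormone-sensitive lipase and monoacylglycerol lipase. Insulin acts in the other direction: it drives glucose uptake and the making of new fatty acids. A fat pad also holds blood vessels, fibroblasts, immune cells and, in the inguinal pad, a lymph node and mammary ducts, and lies close to muscle. In RNA from whole tissue, fewer cells of a type and less RNA per cell cannot be told apart.

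Total counts were 17638318 to 19100698 per iWAT library, and the totals of the leptin and PBS libraries did not differ (exact permutation test over all regroupings, two-sided p = 0.365). The 10 libraries carried the markers of fat: *Fabp4*, a fatty acid carrier of adipocytes, was at 11072 to 50245 TPM (transcript abundance scaled for gene length and library size), *Cfd* at 15611 to 60362 TPM and *Adipoq* at 242 to 983 TPM. Leptin replicate 3 stood apart from the other 4 leptin libraries. It had little lymph node RNA (*Glycam1*, a gene of lymph node venules, at 1.33 TPM against 577 to 1266 TPM in the other 4) and more RNA of lipid-laden macrophages (*Gpnmb* at 429 TPM against 23.9 to 89.2 TPM), so counts that rest on it are also given without it. Whether same-group mice shared a litter or cage is not given. The numbering of the mice in a 100s and a 600s series is the sole batch that the labels show. Of the 2248 genes called here, 2247 had the same direction in both series. These genes were called from the same 10 libraries, so that agreement is no test of a batch effect.

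ICV leptin changed 2248 of the 14873 tested genes in iWAT, 1077 higher and 1171 lower. A gene was called when its adjusted p-value in edgeR's quasi-likelihood test was below 0.05 and its log2 fold change, leptin against PBS, was at least 0.5 in size. The background is therefore 15.1% of genes called in either direction, 7.24% higher and 7.87% lower, and the median log2 fold change of all tested genes was 0.07. Of the called genes, 463 fell and 279 rose by at least 1 on the log2 scale. Values after ± are SDs of 5 libraries, and a fold change in brackets after a gene is its log2 fold change. The groups did not overlap in TPM for 18.7% of tested genes, 4.32% with all leptin libraries above and 14.3% with all below.

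The count of rises was less stable than that of falls. It was 654 without leptin replicate 1, 672 without PBS replicate 4, 694 without PBS replicate 2 and 1520 without leptin replicate 3, while the falls stayed between 1013 and 1325 whichever library was left out. A set of 1432 genes, 504 higher and 928 lower, was called in the fit of all libraries and in each of the 10 fits with 1 library left out. The split also moved with the scaling: 47.9% of calls were higher in edgeR after TMM normalization, 40.6% with RLE size factors, and 24.7% with limma on log2(TPM + 1), which called 465 higher and 1421 lower. Red blood cell genes were lower in all leptin libraries, with a summed level of 432 to 2086 TPM against 3835 to 5165 TPM, and because these ranges do not overlap, that level and the treatment cannot be told apart; 66 genes were called when it was added to the fit as a covariate.

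**Figure D1:**
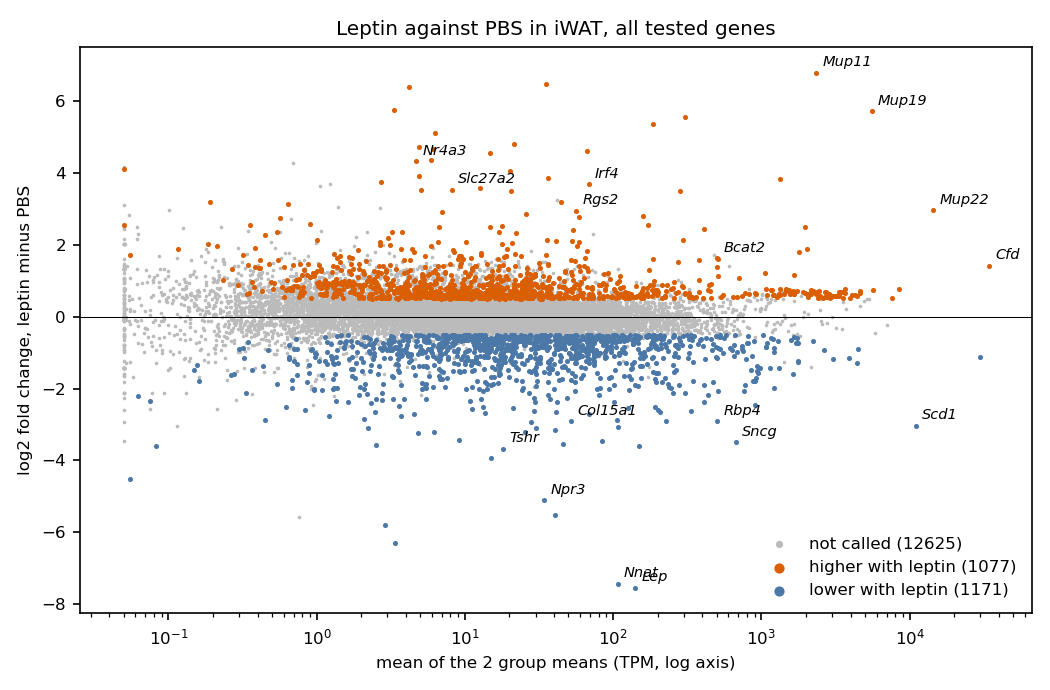
Each point is 1 of the 14873 tested genes, with its mean level in TPM on a log axis (levels below 0.05 drawn at the left edge) and its log2 fold change, leptin minus PBS, on the vertical axis. Orange points are the 1077 genes called higher and blue points the 1171 called lower; *Lep* and *Nnat* lie lowest, and *Mup11* and *Mup19* are among the highest.

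Leptin's own transcript fell to near the limit of detection. *Lep* was at 307, 314, 227, 189.9 and 365 TPM in the PBS libraries and at 0.160, 6.00, 0.280, 0.380 and 0.450 TPM in the leptin libraries. The groups did not overlap, and the highest leptin library, replicate 2, was still far below the lowest PBS library. The change was -7.54 on the log2 scale (SE 0.978, adjusted p = 5.55e-04). *Lep* lies at chr6:29060221-29073876 (GRCm38.p6).

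*Pnpla2*, the first lipase of triglyceride breakdown, did not pass, while its inhibitor *G0s2* fell. Of 19 lipases and lipolysis regulators, 9 fell, 1 rose and 9 did not pass, with a median log2 fold change of -0.65; 7 of the falls and the rise held in each fit with 1 library left out. *Pnpla2*, which encodes ATGL, was at 1276, 1066, 1253, 1803 and 1785 TPM with PBS and at 974, 1738, 1550.3, 1172 and 1496 TPM with leptin, so the groups overlapped fully (log2 fold change 0.04, SE 0.207, adjusted p = 0.905). Its inhibitor *G0s2* was at 276 to 588 TPM with PBS and 61.0 to 111 TPM with leptin, without overlap, and fell by 2.13 on the log2 scale (SE 0.244, adjusted p = 2.89e-04).

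The lipases that act after ATGL fell in the fit of all libraries. *Mgll*, monoacylglycerol lipase, was at 487 to 594 TPM with PBS and 87.4 to 258 TPM with leptin and fell by 1.80 on the log2 scale (SE 0.252, adjusted p = 8.56e-04). *Lipe*, hormone-sensitive lipase, fell by 0.74 (SE 0.2, adjusted p = 0.0216), a call lost without PBS replicate 4 (0.0534) or leptin replicate 4 (0.0558). *Sncg*, gamma-synuclein, which is abundant in fat, was among the most regular falls, from 967 to 1377 TPM to 82.0 to 132 TPM (-3.49, SE 0.176, adjusted p = 5.13e-06). *Pnpla3*, a relative of ATGL that insulin and feeding are known to raise, fell from 121 to 386 TPM to 7.08 to 49.0 TPM (-3.59, adjusted p = 0.00109). The catalytic subunit of protein kinase A, *Prkaca*, fell by 1.10 (adjusted p = 0.00652), whereas *Adcy3*, an adenylyl cyclase that makes cyclic AMP, rose from 15.6 to 18.6 TPM to 26.9 to 46.3 TPM (1.20, SE 0.159, adjusted p = 6.52e-04).

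Genes for proteins that coat or shape the lipid droplet gave falls and no rise. Of 16 tested, 8 fell and 8 did not pass (median log2 fold change -0.70), and the 8 falls held in each fit with 1 library left out. *Plin1*, the perilipin that guards the droplet of white adipocytes, was at 966, 814, 895, 1163 and 1185 TPM with PBS and at 345, 591, 535, 409 and 557 TPM with leptin (-0.95, SE 0.178, adjusted p = 0.00387). *Plin4* fell by 1.55 (adjusted p = 0.00222), and *Cav1*, the caveolin of the adipocyte surface, by 1.83 (SE 0.178, adjusted p = 1.08e-04). *Cidec*, which fuses droplets, was at 768 to 1531 TPM with PBS and 944 to 2406 TPM with leptin and did not pass (0.72, adjusted p = 0.0918).

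**Figure D2:**
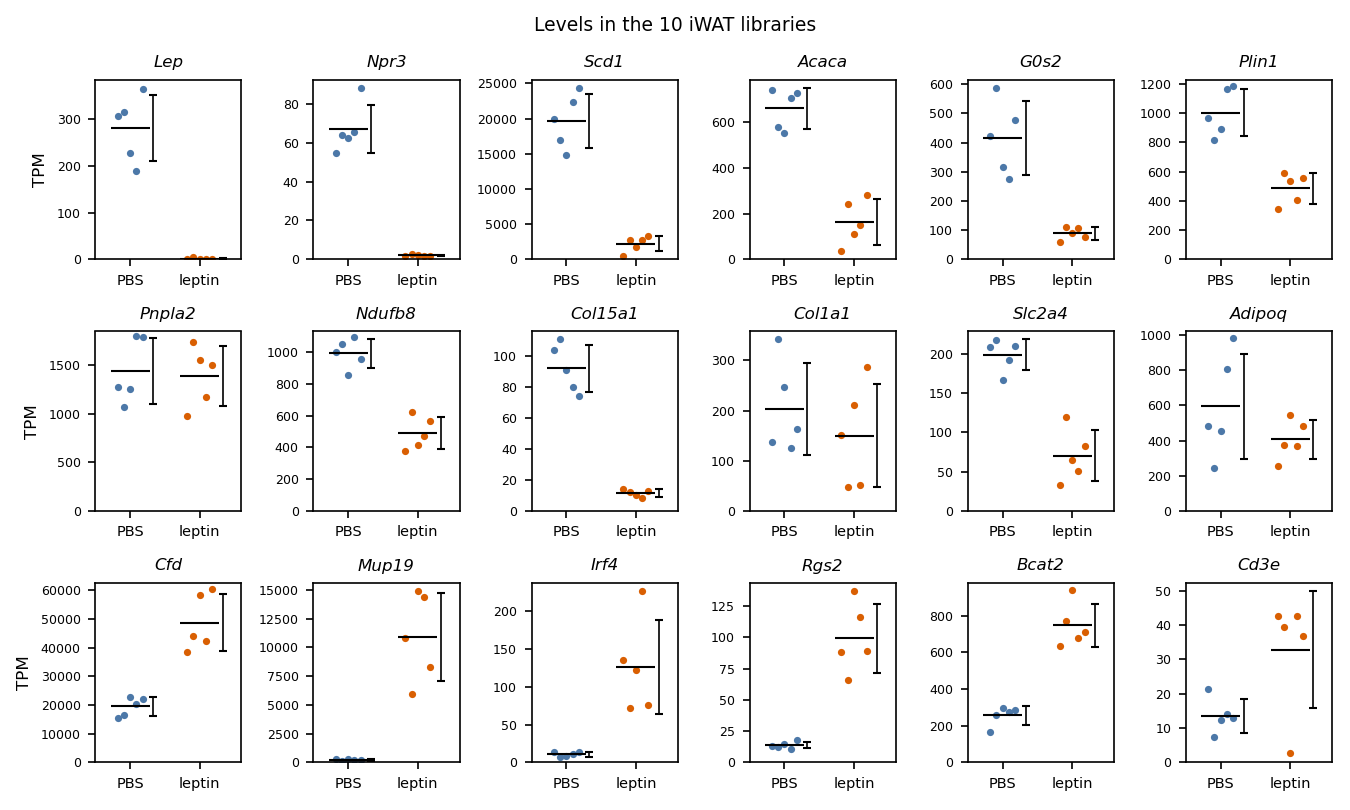
Levels in TPM of 18 genes in the 10 iWAT libraries, 1 point per library in replicate order, with the group mean as a horizontal line, the SD as a bar beside it and a separate vertical axis from 0 for each gene. *Lep*, *Npr3*, *Scd1* and *Col15a1* show no overlap of the groups, *Pnpla2*, *Col1a1* and *Adipoq* overlap, and leptin replicate 3 lies below all PBS libraries for *Cd3e*.

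De novo lipogenesis, the making of fatty acids from glucose carbon, was the lipid list with the lowest median. Of 22 genes, 15 fell and 1 rose (median -1.36), and 11 falls and the rise held in each fit with 1 library left out. *Scd1*, the desaturase that makes oleate, was the most abundant of them, at 20007, 17009.9, 14801, 22337 and 24302 TPM with PBS and 517, 2824, 1774, 2796 and 3276 TPM with leptin. All leptin libraries lay below all PBS libraries, and the change was -3.03 (SE 0.453, adjusted p = 0.00123). Summed over the list, the level was 35269.6 to 44652 TPM with PBS and 3376 to 16028 TPM with leptin.

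The enzymes that supply the substrates of that pathway were also lower. *Acly*, which makes cytosolic acetyl-CoA, fell from 1177 to 1907 TPM to 63.1 to 588 TPM (-2.47, SE 0.554, adjusted p = 0.00933), and *Acss2*, which makes it from acetate, fell by 2.63 (adjusted p = 0.00217). *Acaca*, which makes malonyl-CoA, fell by 1.90 (SE 0.445, adjusted p = 0.0113). The NADPH enzymes *G6pdx*, *Pgd* and *Me1* fell by 1.30, 2.06 and 1.99. *Fasn*, fatty acid synthase, was at 2957 to 3520.3 TPM with PBS and 242 to 2159.7 TPM with leptin, without overlap, but its change of -1.40 missed the threshold (SE 0.487, adjusted p = 0.0556); the adjusted p was 0.037 without leptin replicate 1, 0.047 without leptin replicate 2 and 0.0259 without leptin replicate 5. *Srebf1*, whose product drives these genes, fell by 0.87 (adjusted p = 0.0219, 0.055 without leptin replicate 4). The rise was *Elovl5*, which elongates polyunsaturated fatty acids, from 55.5 to 68.4 TPM to 85.9 to 121 TPM (0.87, adjusted p = 8.07e-04).

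Cholesterol synthesis genes fell at early and late steps of the pathway. Of 20 enzymes, 14 fell and 6 did not pass (median -0.91), and 12 falls held in each fit with 1 library left out. *Hmgcs1*, an early step, was at 104, 124, 87.2, 52.6 and 58.5 TPM with PBS and between 24.3 and 25.9 TPM in all leptin libraries (-1.66, SE 0.214, adjusted p = 5.49e-04). *Lss*, which closes the sterol rings, fell by 1.80 (SE 0.154, adjusted p = 5.28e-05) and *Sc5d*, a late step, by 1.99 (SE 0.213, adjusted p = 1.98e-04). The leptin libraries were close to each other for these genes, while the PBS libraries spread more widely.

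Fatty acid uptake and triglyceride synthesis moved less evenly. Of 18 uptake and transport genes, 10 fell and 2 rose (median -0.65), and of 17 genes of triglyceride synthesis and glyceroneogenesis, 6 fell and 11 did not pass (median -0.23). *Cd36*, a fatty acid transporter, was at 1068 to 1766 TPM with PBS and 306 to 784 TPM with leptin (-1.36, SE 0.258, adjusted p = 0.0041), and *Angptl8*, an inhibitor of lipoprotein lipase that feeding raises, fell by 3.47 (adjusted p = 0.00317). Of the enzymes that build triglyceride, *Dgat2* fell by 1.42 (SE 0.361, adjusted p = 0.0163), *Agpat2* by 1.56 (adjusted p = 0.00834) and *Mogat2* fell by 3.23 (adjusted p = 0.00485).

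The rises in the uptake list were *Slc27a2* and *Slc27a1*, acyl-CoA synthetases of the SLC27 family. Another member, *Slc27a4*, fell by 0.58 (adjusted p = 6.80e-04). The acyl-CoA synthetase *Acsl1* fell by 0.82 (adjusted p = 0.0476), a call lost in most fits with 1 library left out. *Slc27a2*, which acts at the endoplasmic reticulum and peroxisome, was at 2.25, 0.540, 2.81, 0.660 and 0.700 TPM with PBS and at 6.61, 14.4, 20.5, 19.5 and 13.8 TPM with leptin (3.54, SE 0.506, adjusted p = 9.62e-04). *Slc27a1* rose from 285 to 704 TPM to 735 to 1093 TPM (1.07, adjusted p = 0.0126). *Pck1*, the rate-limiting enzyme of glyceroneogenesis, did not pass, at 344 to 1456 TPM with PBS and 923 to 1659 TPM with leptin (0.54, SE 0.381, adjusted p = 0.314). Its difference in mean log2(TPM + 0.1) was 0.97 in the 100s series of mice and -0.11 in the 600s series.

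**Figure D3:**
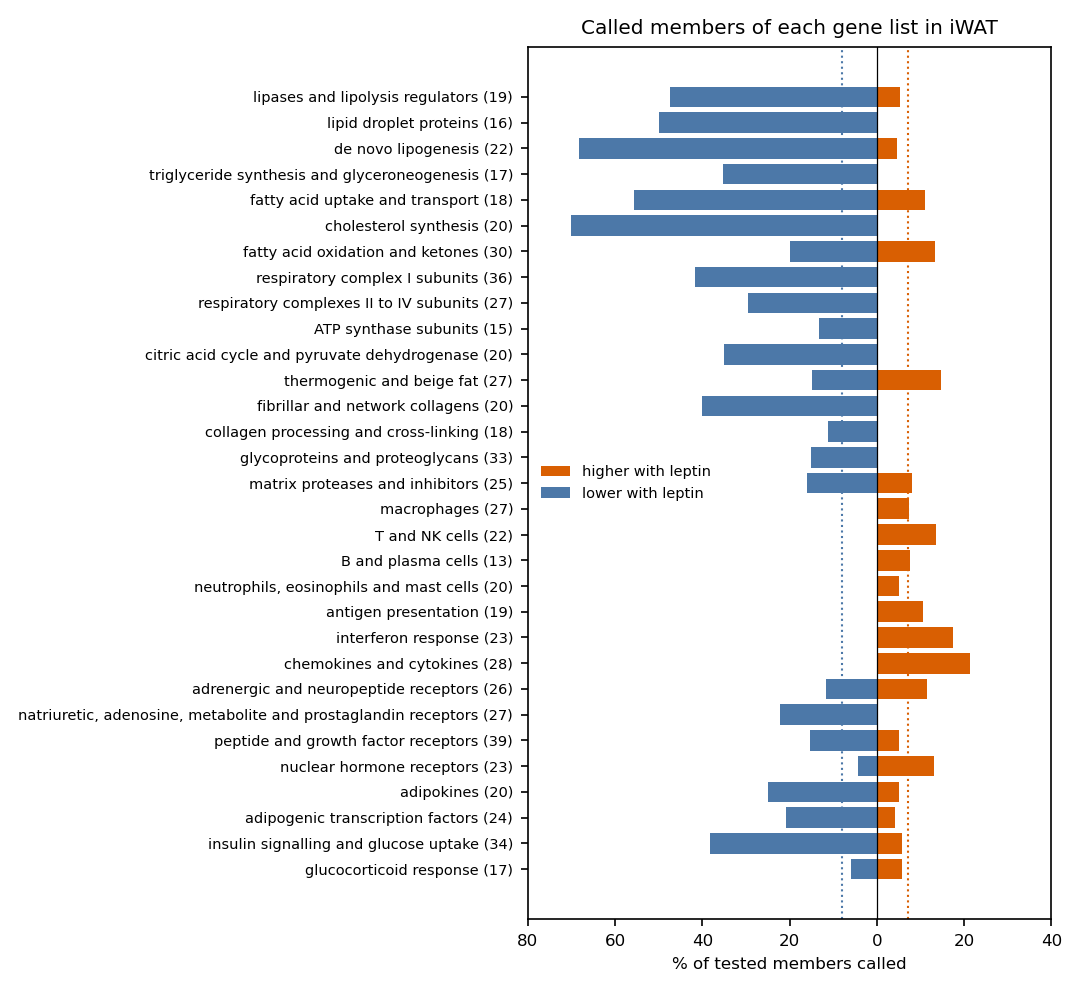
For each list of metabolic, matrix, immune and hormone-related genes, the bars give the percent of its tested members (number in brackets) called higher with leptin, to the right in orange, and lower, to the left in blue. Dotted lines mark the 7.24% of all tested genes called higher and the 7.87% called lower; of the lists drawn, lipogenesis, cholesterol synthesis and fatty acid uptake reach farthest to the left.

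Fatty acid oxidation genes moved in both directions. Of 30 genes, 4 rose, 6 fell and 20 did not pass (median -0.13). The rises that held in each fit with 1 library left out were *Ehhadh*, a peroxisomal enzyme, from 23.6 to 36.9 TPM to 42.8 to 84.2 TPM (1.25, SE 0.199, adjusted p = 0.00169), *Acot1*, a cytosolic thioesterase (1.46, adjusted p = 0.00842), and *Eci1*, a mitochondrial isomerase (0.63, adjusted p = 0.0164). The falls that held in this way were mitochondrial enzymes: *Acads*, the short-chain dehydrogenase (-0.97, SE 0.168, adjusted p = 0.00264), *Hadh* (-0.76, adjusted p = 0.0154), *Acaa2* (-0.61, adjusted p = 0.00669) and the thioesterase *Acot2* (-0.84, adjusted p = 4.85e-04). Outside the list, *Acot5*, a peroxisomal thioesterase, rose from 0.130 to 0.490 TPM to 3.53 to 17.3 TPM (5.10, SE 0.486, adjusted p = 9.80e-05). *Cpt1b*, which admits long chains to mitochondria, was at 4.23 to 12.3 TPM with PBS and 2.71 to 7.86 TPM with leptin and did not pass (-0.63, adjusted p = 0.215).

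Nuclear-encoded respiratory chain subunits gave falls of small size and no rise in complexes I to IV. In complex I, 15 of 36 subunits fell and 35 of 36 had a negative log2 fold change (median -0.39); 9 of the falls held in each fit with 1 library left out. *Ndufb8* was at 1000.3, 1049, 858, 1094 and 959 TPM with PBS and at 379, 622, 413, 469.8 and 567 TPM with leptin, without overlap (-0.89, SE 0.148, adjusted p = 0.00211). In complexes II to IV, 8 of 27 subunits fell (median -0.44, 18 lower with limma on log2(TPM + 1)). That count was 4 without PBS replicate 4, 5 without PBS replicate 2, PBS replicate 5 or leptin replicate 4, and 12 without leptin replicate 2. Among 15 ATP synthase subunits 2 fell (median -0.31), *Atp5g3* by 0.60 and *Atp5k* by 0.73. These were 13.3% of that list, against 7.87% of all tested genes called lower. Cytochrome c, *Cycs*, fell by 1.00 (SE 0.17, adjusted p = 0.00232). Transcripts encoded by the mitochondrial genome were not analysed here.

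The citric acid cycle and the entry of pyruvate into it also gave falls and no rise. Of 20 genes, 7 fell and 13 did not pass (median -0.47), and the 7 falls held in each fit with 1 library left out, with 12 falls without leptin replicate 5. *Cs*, citrate synthase, was at 380.2 to 477 TPM with PBS and 150.5 to 281 TPM with leptin (-1.01, SE 0.178, adjusted p = 0.00272). *Mpc1*, part of the mitochondrial pyruvate carrier, fell by 1.19 (adjusted p = 0.00812), and the pyruvate dehydrogenase parts *Pdhb* and *Pdhx* by 1.10 and 1.11.

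Thermogenic and beige fat genes went in both directions. Of 27, 4 rose, 4 fell and 19 did not pass (median 0.04). Without leptin replicate 3, 7 rose and 3 fell (median -0.02), while 1 fell without PBS replicate 1 or 2, and 2 fell without PBS replicate 4, PBS replicate 5 or leptin replicate 5. *Ucp1*, the uncoupling protein of brown and beige adipocytes, was at 24.5, 10.8, 9.62, 10.5 and 7.35 TPM with PBS and at 6.47, 36.6, 14.2, 60.7 and 15.9 TPM with leptin, with wide overlap (1.22, SE 0.557, adjusted p = 0.128). *Ppargc1a*, a regulator of mitochondrial genes, stayed between 1.41 and 2.28 TPM in all 10 libraries (0.36, adjusted p = 0.0737). The rises were *Slc27a2*, *Dio2*, the deiodinase that activates thyroid hormone, *Elovl3*, an elongase (1.69, SE 0.272, adjusted p = 0.00178), and *Kcnk3*, a potassium channel (1.03, adjusted p = 0.00824). These 4 held in each fit with 1 library left out. The falls were *Ucp3* (-1.01, adjusted p = 0.0146), *P2rx5* (-1.32), *Cox7a1* (-1.25) and *Otop1* (-1.10), of which *Ucp3* alone held in each such fit.

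Collagen genes gave falls and no rise. Of 20, 8 fell and 12 did not pass (median -0.65). The type IV chain *Col4a1*, part of the sheet around each adipocyte and vessel, was at 216 to 259.9 TPM with PBS and 41.6 to 66.7 TPM with leptin (-1.94, SE 0.122, adjusted p = 8.07e-06), and its partner chain *Col4a2* fell by 1.91 (SE 0.141, adjusted p = 1.88e-05), also without overlap. *Col15a1*, a collagen of the basement membrane zone, was at 104, 111, 91.5, 80.4 and 74.4 TPM with PBS and at 14.1, 12.3, 10.1, 8.23 and 13.1 TPM with leptin (-2.91, SE 0.162, adjusted p = 6.44e-06). Their partners *Nid1*, *Nid2*, *Lama4*, *Lamc1* and *Hspg2*, which are nidogens, laminin chains and perlecan, were the 5 falls among 33 glycoproteins and proteoglycans (15.2% of the list against 7.87% of all tested genes; median -0.18), by 0.70 to 2.01, and all 5 held in each fit with 1 library left out.

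*Col5a3*, a chain of the fibrillar type V collagen, fell by 2.71 on the log2 scale (SE 0.349, adjusted p = 5.33e-04), while *Col1a1* and *Col3a1*, the chains of types I and III fibrils, did not pass. *Col1a1* was at 137, 343, 247, 126 and 164 TPM with PBS and at 152, 48.5, 210.4, 51.9 and 286 TPM with leptin (-0.35, SE 0.502, adjusted p = 0.637). *Col3a1* was at 496 to 761 TPM with PBS and 91.2 to 719.9 TPM with leptin (-0.60, adjusted p = 0.372). Leptin replicates 2 and 4 held the lowest values of both genes. Of 18 collagen-processing genes, *Sparc*, a collagen-binding protein, fell by 1.51 (SE 0.197, adjusted p = 5.87e-04), *Serpinh1*, the collagen chaperone, fell by 1.09 (adjusted p = 0.00236), and 16 did not pass. The falls were 11.1% of the list, against 7.87% of all tested genes. Without leptin replicate 3 they numbered 7, and those of the glycoprotein list 12.

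Of 25 proteases and their inhibitors, 2 rose and 4 fell (median -0.01), with 7 falls without leptin replicate 3. That is 24% called in either direction, against 15.1% of all tested genes. The rises were near the 7.24% of all tested genes called higher. *Mmp11* rose from 12.0 to 21.8 TPM to 23.9 to 58.9 TPM (1.23, adjusted p = 0.00719) and *Ctss*, a protease of macrophages and other immune cells, rose by 0.97 (adjusted p = 0.00631). *Adamts9* and *Adamts5*, which cut proteoglycans, fell by 1.85 and 1.25. Of 20 markers of adipocyte progenitors and fibroblasts, 5 fell, among them *Fgf10*, a growth factor for adipocyte precursors (-1.35, SE 0.161, adjusted p = 3.51e-04), and 3 rose (median -0.09). Their summed level was 6561 to 8799 TPM with PBS and 3757 to 5679 TPM with leptin, most of it *Gsn*, the actin-severing protein gelsolin, which fell by 0.91 (SE 0.195, adjusted p = 0.00761). Without *Gsn* the sum was 1287 to 2032 TPM with PBS and 1402 to 1827 TPM with leptin, with full overlap. The part of cell numbers in the matrix changes was not tested.

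The medians of the T and NK cell, macrophage, chemokine and interferon-response lists were positive, and how many genes were called depended on the libraries kept. Of 22 T and NK cell markers, 3 rose with all libraries (median 1.29) and 18 without leptin replicate 3, while 0 rose without leptin replicate 1, PBS replicate 4 or PBS replicate 5. For B and plasma cell markers the rises were 1 of 13 with all libraries and 6 without leptin replicate 3, and for antigen presentation 2 of 19 and 12. Over all libraries 13.6%, 7.69% and 10.5% of these lists were called higher, against 7.24% of all tested genes. *Cd3e*, a chain of the T cell receptor complex, was at 7.49 to 21.3 TPM with PBS and at 42.6, 39.6, 2.74, 42.8 and 36.7 TPM with leptin. It did not pass over all libraries (1.37, SE 0.540, adjusted p = 0.0836) and rose without leptin replicate 3 (1.64, adjusted p = 9.81e-04).

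Lymph node RNA moved with these counts. The summed level of 9 lymph node stroma genes was 902, 309, 547, 1267 and 1117 TPM with PBS and 2968, 1638, 264, 2787 and 2652 TPM with leptin, so leptin replicate 3 was the lowest of the 10 and the other 4 leptin libraries were the highest. T and NK cell markers parted the libraries in the same way, at no more than 425 TPM with PBS, 566 to 794 TPM in those 4 leptin libraries and 96.6 TPM in leptin replicate 3. With the lymph node level as a covariate, 1 T and NK cell marker rose and the median of the list was -0.06, and 8 of 13 B and plasma cell markers were called lower. Without leptin replicate 3 the lymph node levels of the groups do not overlap. That fit therefore rests on 1 library to part this level from the treatment, and no conclusion is drawn from it. The part of the lymph node in the rises was not tested.

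Macrophage markers were called higher at 7.41%, near the 7.24% of all tested genes. Of 27, 2 rose (median 0.43; 5 without PBS replicate 3 and 6 without leptin replicate 2), of which *Mpeg1*, a pore protein of phagocytes, held in each fit with 1 library left out (30.5 to 45.7 TPM against 51.2 to 74.7 TPM; 0.74, SE 0.153, adjusted p = 0.00631). *Adgre1*, which encodes F4/80, was at 11.6 to 28.8 TPM with PBS and 13.7 to 33.8 TPM with leptin and did not pass (0.40, adjusted p = 0.299). With the lymph node level as a covariate, in the fit that rests on leptin replicate 3, 10 macrophage markers rose and 1 fell. *Xbp1*, which is high in plasma cells and in other secretory cells, rose from 132 ± 21.4 TPM to 244 ± 60.8 TPM (0.99, SE 0.193, adjusted p = 0.00477).

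Of 28 chemokines and cytokines, 6 rose (median 0.74; 3 without PBS replicate 4, PBS replicate 5 or leptin replicate 4), of which 3 held in each fit with 1 library left out: *Cxcl12* (0.70, adjusted p = 0.00167), *Cxcl16* (0.82, adjusted p = 0.00264), a chemokine and scavenger receptor, and *Cxcl13* (1.36, adjusted p = 0.006), which draws B cells into lymphoid tissue. Of 23 interferon-response genes, 4 rose (median 0.51), and 1 of these held in each fit with 1 library left out; the rises were 9 without PBS replicate 1 and 1 without PBS replicate 2, PBS replicate 4, PBS replicate 5 or leptin replicate 1.

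Among other cell types of the pad, 6 of 8 red blood cell genes fell, *Hbb-bs* from 1172 to 1667 TPM to 142 to 701 TPM (-1.70, SE 0.388, adjusted p = 0.01). Skeletal muscle markers marked single libraries in both groups, with summed levels of 112 to 4706 TPM with PBS and 35.0 to 6011 TPM with leptin, and 2394 genes were called when that level was a covariate. Of 20 endothelial markers 1 rose and 1 fell, and of 15 pericyte and smooth muscle markers 1 rose and 2 fell, *Mcam* by 1.49 (adjusted p = 0.00149) and *Cspg4* by 1.68 (adjusted p = 0.00581). In 21 nerve and Schwann cell markers, 3 rose and 1 fell, *Pmp22*, a myelin protein that other cells also make (-0.88, adjusted p = 0.0025). The endothelial, pericyte and nerve lists were called at 10%, 20% and 19% in either direction, against 15.1% of all tested genes. Of 22 mammary epithelium markers and 20 proliferation genes, edgeR and DESeq2 called 0 and 1 of each list had an unadjusted p below 0.05 in edgeR. Without leptin replicate 3, edgeR called 4 proliferation genes higher (median 0.47) and 0 mammary markers.

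**Figure D4:**
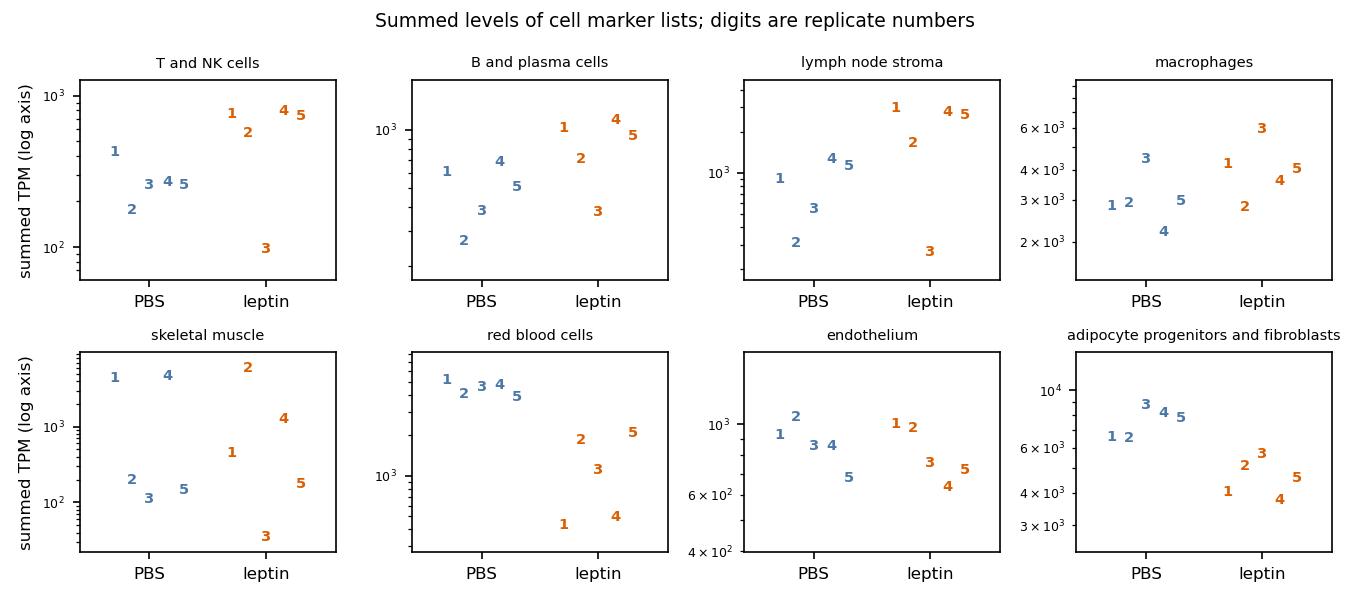
Summed level in TPM, on log axes, of 8 marker lists in each iWAT library, with digits giving the replicate number. Leptin replicate 3 is lowest for T and NK cells and lymph node stroma and highest for macrophages, red blood cell levels do not overlap between groups, progenitor levels do not either but do so once *Gsn* is left out of the sum, and muscle levels spread over both groups.

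Of 26 adrenergic and neuropeptide receptors, 3 rose and 3 fell (median 0.22). That is 23.1% called in either direction, against 15.1% of all tested genes. *Adrb3*, the beta-3 receptor typical of adipocytes, was at 264 ± 61.9 TPM (SD, n = 5) with PBS and at 34.8, 222, 25.9, 18.7 and 84.8 TPM with leptin. Leptin replicate 2 alone reached the PBS range, and the change of -1.69 did not pass (SE 0.601, adjusted p = 0.0593), whereas without that library it was -2.58 (adjusted p = 0.00239). *Ntrk2*, the receptor of the nerve growth factor BDNF, fell from 53.7 ± 5.37 TPM to 18.6 ± 3.95 TPM (-1.44, SE 0.137, adjusted p = 9.80e-05), and *Cnr1*, a cannabinoid receptor, fell by 0.97 (adjusted p = 0.0153).

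The natriuretic peptide clearance receptor gave one of the most regular falls of all. *Npr3*, which removes natriuretic peptides, was at 54.7, 63.7, 62.5, 65.4 and 87.8 TPM with PBS and at 1.89, 2.66, 2.29, 1.75 and 1.69 TPM with leptin. The groups lay far apart, and the change was -5.10 (SE 0.207, adjusted p = 1.06e-06). *Npr1*, the receptor that signals through cyclic GMP, stayed at 30.7 to 47.8 TPM and 31.1 to 50.0 TPM (0.12, SE 0.154, adjusted p = 0.598). *Npr3* lies at chr15:11839896-11907837 (GRCm38.p6).

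Receptors that restrain lipolysis were the other falls of that list. Of 27 natriuretic, adenosine, metabolite and prostaglandin receptors, 6 fell and 21 did not pass (median 0.12). The falls were 22.2% of the list, against 7.87% of all tested genes. *Adora1*, the adenosine A1 receptor, fell by 2.12 (adjusted p = 0.00516), *Ptger3*, a prostaglandin E2 receptor, by 2.02 (adjusted p = 7.33e-04) and *Sucnr1*, the succinate receptor, by 2.34 (adjusted p = 0.016). The lactate receptor *Hcar1* and the short-chain fatty acid receptor *Ffar2* made up the 6 with *Npr3*, with log2 fold changes of -1.30 and -1.85, and both lost their call in most fits with 1 library left out.

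Receptors for peptide hormones mostly fell where they passed. Of 39 peptide and growth factor receptors, 6 fell and 2 rose (median -0.00), and the 8 held in each fit with 1 library left out. That is 20.5% called in either direction, against 15.1% of all tested genes. *Tshr*, the thyrotropin receptor, was at 24.2 to 41.0 TPM with PBS and 1.05 to 5.77 TPM with leptin (-3.67, SE 0.417, adjusted p = 2.68e-04). *Ghr*, the growth hormone receptor, fell by 1.74 (SE 0.203, adjusted p = 3.28e-04), *Pth1r*, the parathyroid hormone receptor, by 2.06 (adjusted p = 0.0011), and *Klb*, the co-receptor of FGF21, by 1.27 (adjusted p = 0.00117). The rises were *Gcgr*, the glucagon receptor (1.99, adjusted p = 0.00264), and *Lepr*, the leptin receptor, at 2.59, 2.70, 2.99, 3.60 and 4.02 TPM with PBS and at 7.66, 4.42, 5.34, 6.92 and 5.83 TPM with leptin (1.01, SE 0.167, adjusted p = 0.00204).

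Insulin signalling and glycolysis genes mostly fell where they passed, though the list split evenly in sign, with 17 positive and 17 negative log2 fold changes. Of 34, 13 fell and 2 rose (median -0.06), and 11 falls and 1 rise held in each fit with 1 library left out. *Insr*, the insulin receptor, was at 15.9 to 22.9 TPM with PBS and 18.9 to 31.8 TPM with leptin and did not pass (0.32, adjusted p = 0.151). *Slc2a4*, the insulin-responsive glucose transporter GLUT4, was at 199 ± 20.1 TPM (SD, n = 5) with PBS and at 33.2, 119, 65.3, 50.9 and 83.0 TPM with leptin, without overlap (-1.44, SE 0.277, adjusted p = 0.0045). The glycolytic enzymes *Hk2*, *Pfkl* and *Pkm* fell by 1.56, 1.67 and 1.47. *Irs1*, an adaptor of the insulin receptor, rose from 15.2 ± 1.81 TPM to 31.8 ± 5.23 TPM (1.16, SE 0.14, adjusted p = 3.88e-04).

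Genes that define the fat cell did not fall alike. *Adipoq*, adiponectin, was at 242 to 983 TPM with PBS and at 257 to 546 TPM with leptin (-0.44, SE 0.347, adjusted p = 0.369), and *Pparg*, the master regulator of adipocytes, was at 203 ± 24.3 TPM and 147 ± 32.2 TPM (SD, n = 5; -0.38, adjusted p = 0.0858). *Cfd*, adipsin, a complement protease made by adipocytes, rose from 15611, 16459.6, 22985, 20532 and 22194 TPM to 38484, 44183, 58533, 42405 and 60362 TPM, without overlap (1.42, SE 0.211, adjusted p = 0.0012). *Rbp4*, the retinol carrier, fell by 2.91 (SE 0.453, adjusted p = 0.00151), and *Apln*, apelin, by 1.32 (adjusted p = 0.00419). Of 24 adipogenic transcription factors, 5 fell and 1 rose (median -0.08), among them *Cebpa* (-0.88, adjusted p = 0.00642) and *Zfp423*, a factor of white adipocyte identity (-0.82, adjusted p = 0.00488), with *Cebpb*, an early factor, higher (0.80, adjusted p = 0.0148).

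Nuclear hormone receptors and glucocorticoid-response genes were called at 17.4% and 11.8%, near the 15.1% of all tested genes. Of 23 nuclear hormone receptors, 3 rose and 1 fell (median 0.07), and *Nr4a1* and *Nr4a3* were the ones that held in each fit with 1 library left out. Of 17 glucocorticoid-response genes, 1 rose and 1 fell (median 0.06). The fall was *Hsd11b1*, which regenerates active glucocorticoid inside cells, from 397 ± 67.0 TPM to 94.9 ± 41.8 TPM (-1.97, SE 0.247, adjusted p = 4.64e-04).

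Some of the genes that cyclic AMP is known to raise rose with leptin. Of 22 such genes, listed with these results in view, 12 rose and 10 did not pass (median 0.57), and 8 rises held in each fit with 1 library left out. *Nr4a3*, an orphan nuclear receptor, was at 0.300 to 0.600 TPM with PBS and at 6.86, 1.21, 16.4, 17.0 and 3.08 TPM with leptin (4.33, SE 0.705, adjusted p = 0.00188). *Dio2* was at 0.230 to 0.630 TPM with PBS and at 3.79, 1.17, 6.04, 12.1 and 2.16 TPM with leptin (3.76, SE 0.621, adjusted p = 0.00202). Replicates 2 and 5 were the lowest of the leptin libraries for both genes, yet above all PBS libraries.

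Other members rose with less spread. *Rgs2*, which damps signalling by G proteins, was at 13.5, 12.4, 14.9, 10.9 and 17.6 TPM with PBS and at 88.1, 66.1, 137, 116 and 89.0 TPM with leptin (2.95, SE 0.216, adjusted p = 1.88e-05). *Irf4*, a transcription factor of fasted adipocytes and of lymphocytes, was at 6.93 to 13.5 TPM with PBS and at 135, 71.8, 122, 226 and 76.0 TPM with leptin (3.70, SE 0.357, adjusted p = 1.03e-04). *Irf4* was high in leptin replicate 3, where lymphocyte markers were low. *Pde4d*, a phosphodiesterase that removes cyclic AMP, rose by 2.50 (SE 0.334, adjusted p = 6.72e-04).

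The promoters of *Rgs2*, *Nr4a3* and *Dio2* are shown because they are 3 of the 4 genes called in this list whose promoter holds a core of the cyclic AMP response element. The sequences are the 250 bases before the RefSeq start on GRCm38.p6, 5′ to 3′ on the gene's strand, and capitals mark TGACGT or its reverse complement ACGTCA, which overlap in the palindrome upstream of *Dio2*. The *Rgs2* promoter is chr1:144004150-144004399 (minus strand), that of *Nr4a3* is chr4:48045055-48045304 (plus strand) and that of *Dio2* is chr12:90739039-90739288 (minus strand). The annotated span of *Nr4a3* begins at chr4:48045078, so most of its window lies inside the gene, before an internal start. A match describes letters and is no evidence of a bound factor.
Rgs2: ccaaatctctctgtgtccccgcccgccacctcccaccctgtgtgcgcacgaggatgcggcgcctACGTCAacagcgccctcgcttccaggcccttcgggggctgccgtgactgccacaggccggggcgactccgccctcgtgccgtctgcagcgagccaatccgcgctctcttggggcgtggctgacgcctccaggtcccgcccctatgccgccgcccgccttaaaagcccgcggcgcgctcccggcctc
Nr4a3: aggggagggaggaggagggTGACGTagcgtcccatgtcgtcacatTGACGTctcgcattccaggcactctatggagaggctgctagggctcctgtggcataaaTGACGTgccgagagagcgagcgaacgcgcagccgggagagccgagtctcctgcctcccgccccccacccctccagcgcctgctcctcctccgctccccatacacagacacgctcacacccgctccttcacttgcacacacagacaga
Dio2: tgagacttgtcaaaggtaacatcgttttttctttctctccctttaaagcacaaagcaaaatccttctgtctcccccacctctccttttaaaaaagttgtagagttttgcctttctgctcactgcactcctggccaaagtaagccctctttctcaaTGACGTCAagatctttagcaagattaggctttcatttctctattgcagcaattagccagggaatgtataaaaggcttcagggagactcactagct

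*Rgs2* holds 1 match, *Nr4a3* holds 3, at positions -231, -205 and -147 from the internal start used, and *Dio2* the overlapping pair at -95 and -93. The motif was in 6.47% of the 32851 promoters of the table and in 7.29% of its 27025 genes. It was in 10 of the 19 listed genes with a promoter, and among the 10 called genes with a promoter in 4, the fourth being *Pde4b*. The 6 matches outside the called genes belong to *Atf3*, *Dusp1*, *Fos*, *Pde4a*, *Per1* and *Ppargc1a*, which are listed and were not called.

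Major urinary proteins, small carriers of the lipocalin family that liver is best known for, showed the highest rises. Of 16 tested *Mup* genes, 12 rose, and the 12 held in each fit with 1 library left out (median 3.94). *Mup7* fell by 1.16 (adjusted p = 0.0497), a call kept in 2 of those 10 fits, and 3 did not pass. *Mup19* was at 157 to 323 TPM with PBS and at 10848, 5962, 14849, 14392 and 8331 TPM with leptin (5.73, SE 0.355, adjusted p = 8.07e-06), and *Mup11* at 35.0 to 65.4 TPM with PBS and at 5981, 2085, 6322, 6416 and 2491 TPM with leptin (6.79, SE 0.433, adjusted p = 8.20e-06). *Mup22* was already abundant with PBS, at 3063 to 3951 TPM, and reached 21214 to 29129.8 TPM. Summed over the family, the level was 4022 to 5312 TPM with PBS and 36955 to 58856 TPM with leptin.

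These genes form a cluster of near-identical copies on chromosome 4, so the division of reads between members is uncertain and the sum is firmer than any 1 gene. The stretch below is a run of bases from RefSeq on GRCm38.p6. It lies upstream of *Mup11* (chr4:60662446-60662613, minus strand), and an identical run lies at the start of *Mup19* (chr4:61782302-61782469, minus strand). The run at *Mup19* is upstream only in part, since the annotated gene reaches chr4:61782355. The run is no measure of how alike the transcripts of the family are, which was not tested. Of 14 *Mup* genes with a promoter in the table, 3 hold the run (*Mup9* is the other), and no other promoter in the table does.
Mup11 and Mup19: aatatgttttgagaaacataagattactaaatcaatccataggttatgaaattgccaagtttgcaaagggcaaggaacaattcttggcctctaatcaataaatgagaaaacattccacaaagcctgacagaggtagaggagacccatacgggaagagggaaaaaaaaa

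Of 12 genes that cytokine receptors and STAT5 are known to switch on, listed with these results in view, 4 rose and 8 did not pass (median 0.36). *Socs2*, a feedback inhibitor of growth hormone signalling, was at 9.98 to 17.1 TPM with PBS and at 48.4, 34.0, 77.6, 91.9 and 36.1 TPM with leptin (2.13, SE 0.281, adjusted p = 6.32e-04). *Pim1*, a kinase of cytokine signalling, rose (2.11, SE 0.2, adjusted p = 9.72e-05), and *Cish*, another feedback inhibitor, rose by 0.81 (adjusted p = 0.00473). Growth hormone's receptor fell in the same libraries, as given above.

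The response of iWAT differed from that of CV in the same mice. A fit of both tissues found a different leptin effect for 2299 genes, 15.5% of those tested, 942 with the higher log2 fold change in iWAT and 1357 with the lower. Within CV, 749 genes were called, 5.04% of those tested. Of the iWAT calls 8.23% were also called in CV, and of the CV calls 24.7% in iWAT. Of the genes called in both, 88.1% went the same way and 22 went in opposite directions. CV holds bone and marrow cells besides fat cells. With PBS, *Plin1* averaged 1005 TPM in iWAT and 240.3 TPM in CV, and *Lepr* averaged 3.18 TPM and 52.1 TPM. Cell make-up and response per cell cannot be told apart in the tissue differences below, and the part of cell make-up was not tested.

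The lists differed in how far the tissues parted. For cholesterol synthesis 9 of 20 genes differed between tissues, with a median log2 fold change of -0.91 in iWAT and -0.12 in CV, and for de novo lipogenesis 8 of 22, with -1.36 and -0.26. Among collagens 9 of 20 differed: *Col4a2* fell in iWAT and had a log2 fold change of -0.11 in CV (difference -1.84, SE 0.196, adjusted p = 1.20e-05), and *Col1a1* rose in CV by 1.66 (difference -2.05, adjusted p = 0.0445, lost in 13 of 20 fits with 1 library left out, up to 0.0904). For lipases and regulators 3 of 19 differed, and the medians were -0.65 and -0.57. *Mgll* fell in CV by 1.64 (difference -0.19, SE 0.296, adjusted p = 0.712), and *G0s2* by 1.49 (difference -0.68, SE 0.517, adjusted p = 0.401).

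Receptors gave some of the clearest differences. *Npr3* fell by 0.58 in CV and by 5.10 in iWAT (difference -4.55, SE 0.242, adjusted p = 1.27e-09). *Lepr* was at 52.1 ± 11.5 TPM (SD, n = 5) with PBS and 35.2 ± 12.7 TPM with leptin in CV, a change of -0.62 (adjusted p = 0.071), against the rise in iWAT (difference 1.59, SE 0.269, adjusted p = 7.94e-04). *Adrb3*, which was below 1 TPM on average in CV, differed by -2.51 (adjusted p = 0.0859) without and -2.89 (adjusted p = 0.0152) with the mouse as a block.

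Other rises of iWAT had no counterpart called in CV. *Nr4a3*, *Dio2*, *Irf4* and *Pde4d* differed by 4.05, 3.85, 2.73 and 2.67 (adjusted p = 0.00253, 0.0015, 0.00515 and 2.05e-04), and the CV changes, 0.24, -0.13, 0.93 and -0.21, did not pass. *Cyp2f2*, a cytochrome P450, rose from 32.3 to 70.6 TPM to 271 to 761 TPM in iWAT and was at 139 ± 29.4 TPM with PBS and 160.4 ± 47.7 TPM with leptin in CV (SD, n = 5; difference 3.32, SE 0.371, adjusted p = 1.68e-05). *Mup19*, which averaged 6.38 TPM in CV with PBS, differed by 5.12 (SE 0.998, adjusted p = 0.00223). Haemoglobin went the other way in each tissue, with *Hbb-bs* at 1949 ± 839 TPM and 7727 ± 4369.8 TPM in CV (SD, n = 5; difference -3.71, SE 0.615, adjusted p = 6.77e-04).

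*Lep* fell with leptin in both tissues, with log2 fold changes of -7.54 in iWAT and -5.96 in CV. The difference was -1.61 (SE 1.11, adjusted p = 0.348) in the fit without the mouse as a block, -1.98 (adjusted p = 0.00653) with it, and -3.74 (adjusted p = 0.00371) without iWAT leptin replicate 2. *Slc2a4* had a log2 fold change of -1.44 in iWAT and -0.44 in CV (difference -1.03, SE 0.311, adjusted p = 0.0315), and its adjusted p reached 0.0606 without iWAT leptin replicate 4, 0.055 without CV leptin replicate 2, 0.0538 without CV PBS replicate 5 and 0.0526 without iWAT PBS replicate 2. *Pnpla2* and *Adipoq* differed by -0.05 (SE 0.281) and 0.42 (SE 0.442) and did not pass.

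**Figure D5:**
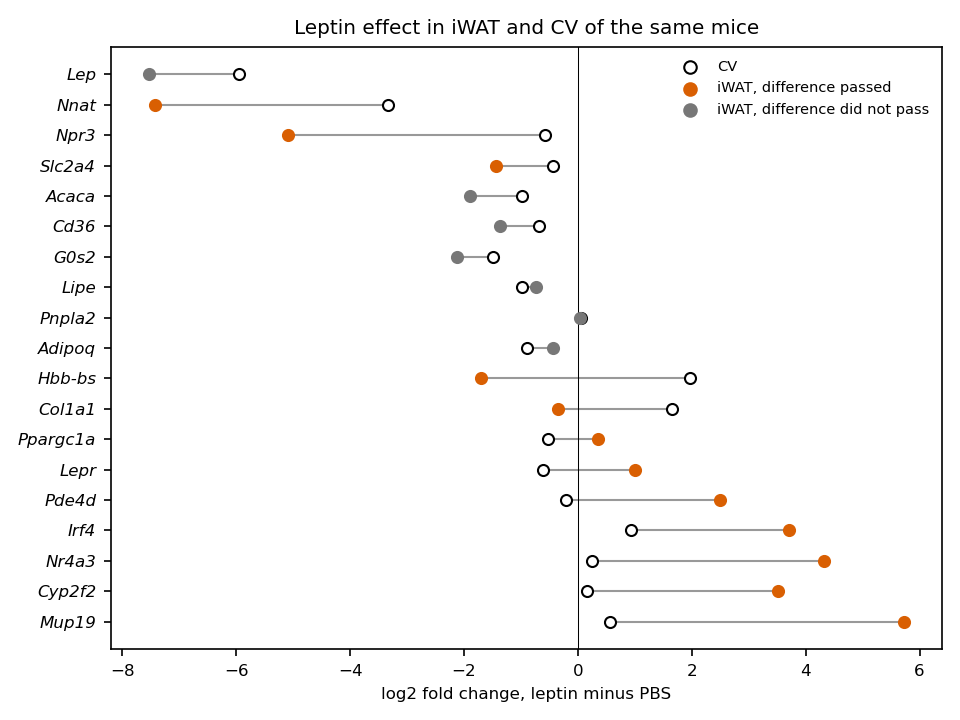
Log2 fold change, leptin minus PBS, of 19 genes in iWAT (filled points, 5 mice per group) and in CV of the same mice (open points). Orange marks genes whose difference between tissues passed at an adjusted p below 0.05 without the mouse as a block; *Npr3*, *Nr4a3* and *Mup19* show the wide gaps, and the points of *Pnpla2* coincide near 0.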

How the data were processed

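RNA from iWAT and CV was sequenced as 100-base paired reads from oligo-dT-selected RNA with random-hexamer reverse transcription. The authors filtered reads with SOAPnuke and aligned them with HISAT and Bowtie2 to mouse GRCm38.p6, per the labels and the study's methods; the tool that made the counts and whether it used strand are not given in the sources used here. The authors deposited an estimated count and a TPM value (transcript abundance scaled for length and library size) for each of 74693 features in each library, of which 39063 carry a numeric gene identifier and were used. In 6 genes 51 counts were not whole, and counts were rounded.

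The 14873 genes that averaged 0.4 TPM or more across all 79 libraries were tested with edgeR 4.0.16 in R 4.3.3 (TMM, quasi-likelihood test, Benjamini-Hochberg adjustment over all tested genes), with 5 libraries against 5. All p-values printed for single genes come from this edgeR test unless another is named, and SE is the log2 fold change divided by the square root of F. Tissues were compared by the interaction in 1 edgeR fit of 20 libraries, without and with the mouse as a block. The mice are the same animals by the labels, and deviations of the tissues correlated at 0.19 to 0.29 in leptin mice and -0.02 to 0.27 in PBS mice. Fold change limits, DESeq2 1.42.0, limma 3.58.1 on log2(TPM + 1) and log2(TPM + 0.1), other filters and leaving out each library were alternatives. In simulated counts, where 200 genes were given a log2 change of 1.5, 183 were recovered with 4.19% false calls in iWAT, and 172 with 4.44% for the tissue interaction. Those counts were drawn independently for each gene and library, with fewer changed genes than were called here. These rates therefore need not hold for the data. Totals were compared with scipy 1.17.1 in Python 3.11.15, and plots drawn with matplotlib 3.10.9.

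Gene lists and members were chosen with earlier results of these data known, and the lists of major urinary proteins, genes raised by cyclic AMP, STAT5 targets, branched-chain amino acid breakdown and imprinted genes, with some single genes, were added after values had been seen. Named genes were the 10 highest and 10 lowest changes without overlap at a mean of at least 5 TPM, up to 3 called members of each list in each direction, a set named in advance of this fit, and up to 5 tissue differences each way; others were named after their values were seen. The p-values measure the spread between mice of a group. Promoter sequences are from RefSeq. Some genes are not reported here.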

Additional observations from a re-analysis of the deposited data

Results flagged for a closer look

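In 29 of 394 groups of 5 libraries, 1 library lay apart by Dixon's test at 0.71; chance sets apart about 1 in 20 groups. Leptin replicate 3 was high for *Tph1* (38.9 TPM), *Mmp12* (355 TPM), *Gpnmb* (429 TPM), *Trem2* (73.7 TPM), *Dbt* (65.5 TPM), *Insr* (31.8 TPM) and *Tnfsf11* (15.7 TPM), and low for *Cd3e* (2.74 TPM). Leptin replicate 2 stood apart for *Mup12* (13.7 TPM), *Lep* (6.00 TPM), *Lrrc39* (4.25 TPM), *Tshr* (5.77 TPM), *Rxrg* (16.1 TPM), *Blcap* (62.6 TPM) and the summed skeletal muscle level (6011 TPM). Leptin replicate 4 stood apart for *Smoc2* (8.69 TPM) and *Col4a2* (27.1 TPM), and leptin replicate 1 for the summed level of neutrophil, eosinophil and mast cell genes (931 TPM). Of that list of 20 genes, 1 rose (5%, against 7.24% of all tested genes called higher, with a median log2 fold change of 0.62).

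Among PBS libraries, replicate 1 stood apart for *Elovl5* (68.4 TPM), *Nr4a1* (10.4 TPM), *Bcat2* (168.14 TPM) and *Ucp1* (24.5 TPM). PBS replicate 2 stood apart for *Acot5* (0.130 TPM), *Mmd* (906 TPM) and *Mogat2* (20.2 TPM), and PBS replicate 3 for *Mup11* (65.4 TPM), *Sncg* (967 TPM), *Atp5k* (1953 TPM) and *Cs* (380.2 TPM).

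The leptin effect, as the log2 fold change in iWAT minus that in CV, differed between tissues in the interaction test. It was higher in iWAT for *Mup19* (5.12), *Prtn3* (4.20), *Nr4a3* (4.05), *Dio2* (3.85), *Cyp2f2* (3.32), *Calml3* (3.27), *Elane* (3.24), *Irf4* (2.73), *Lepr* (1.59) and *Ppargc1a* (0.84). It was lower for *Npr3* (-4.55), *Nnat* (-4.13), *Hba-a2* (-3.82), *Hbb-bs* (-3.71), *Alas2* (-3.59), *Col1a1* (-2.05) and *Slc2a4* (-1.03). The adjusted p of *Elane* was 0.0402, and 0.0811 with the mouse as a block, and that of *Ppargc1a*, 0.0303, passed in 12 of 20 fits with 1 library left out.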

How the results depend on the processing

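The 2248 calls in iWAT (1077 higher, 1171 lower) stayed within 1.5 times under RLE size factors (2165), other filters (2255, 2304 and 2263), DESeq2 (2486), the mouse series as a covariate (2310) and, added after seeing the data, muscle (2394) and lymph node (1980) levels as covariates. The rises were 465 and 556 with limma at pseudocounts of 1 and 0.1. Without a fold change limit 3872 genes were called (1902 higher, 1970 lower), and at a limit of 1 there were 742 (279 higher, 463 lower). Leaving out 1 library gave 1744 to 2845 calls, 654 to 1520 rises and 1013 to 1325 falls; the rises were 654, 672 and 694 without leptin replicate 1, PBS replicate 4 and PBS replicate 2. The interaction gave 1803 to 2683 genes (2299 over all libraries), and the leptin minus PBS difference in total counts was 183752 to 571767. With the summed red blood cell level as a covariate, whose ranges do not overlap between groups, 66 genes were called (29 higher, 37 lower), and 10 named genes changed sign without passing: *P2rx5* (0.03), *Nr4a1* (-0.09), *Ddit4* (-0.13), *Hba-a1* (0.08), *Hba-a2* (0.14), *Mccc1* (0.01), *Pccb* (0.08), *Lipe* (0.01), *Hbb-bs* (0.11) and *Alas2* (0.26). The replicate block over iWAT numbers, which join different mice (correlations -0.17 to 0.39, with 2 of 5 leptin libraries closest to their own number), gave 2229 calls (1052 higher, 1177 lower). With the mouse as a block the interaction gave 2344 genes. Of 2160 counts recomputed for the gene lists, 1824 stayed within 1.5 times; the cause of the other changes was not tested.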

Other observations

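Breakdown of branched-chain amino acids, from a list made after values were seen, gave rises and falls. Of 23 genes, 5 rose and 2 fell (median log2 fold change 0.05); with 1 library left out, 3 to 5 rose and 0 to 4 fell, and without leptin replicate 3 the median was -0.06. *Bcat2*, the mitochondrial transaminase that starts the pathway, was at 256 ± 50.9 TPM (SD, n = 5) with PBS and at 636, 769.9, 939, 680.4 and 708 TPM with leptin, without overlap (1.63, SE 0.18, adjusted p = 2.26e-04). *Ppm1k*, the phosphatase that activates the next enzyme of the pathway, rose from 3.87 to 5.50 TPM to 12.3 to 17.2 TPM (1.69, SE 0.125, adjusted p = 1.98e-05), and *Dbt*, a subunit of that enzyme, rose by 0.81 (adjusted p = 0.00328). These 3 rises held in each fit with 1 library left out.

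Imprinted genes, also listed after values were seen, gave 7 falls among 16 (median -0.36). *Nnat*, neuronatin, was at 68.1, 36.6, 156, 405 and 401 TPM with PBS and at 1.86, 1.09, 0.940, 1.41 and 0.510 TPM with leptin (-7.43, SE 0.814, adjusted p = 2.24e-04). It lies inside *Blcap*, which fell by 1.29 (adjusted p = 0.00185), and reads of overlapping genes cannot be told apart where strand is not used. *Mest* fell by 1.86 (SE 0.19, adjusted p = 1.46e-04). *Snurf* and *Snrpn*, which share a transcript, fell by 1.53 and 1.52.

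*Prtn3*, a protease of granulocyte precursors, was at 3.01 to 7.12 TPM with PBS and at 54.3, 19.9, 132, 75.4 and 55.7 TPM with leptin (3.86, SE 0.491, adjusted p = 5.08e-04). It lies at chr10:79879667-79883174, close to *Elane* (chr10:79886312-79888216) and to the abundant *Cfd* (chr10:79890853-79892655), which were also called higher. The source of the *Prtn3* reads was not tested. *Tph1*, which starts serotonin synthesis, was at 0.0200 to 0.950 TPM with PBS and 1.74 to 38.9 TPM with leptin (4.68, SE 0.734, adjusted p = 0.00155).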
